A study of Mus musculus with 31 samples.

Results

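The WAVE regulatory complex drives branched actin assembly at the cell edge and in dendritic spines. It holds 1 protein from each of several families: CYFIP1 or its paralog CYFIP2, which bind active Rac1, NCKAP1, an ABI protein, a WAVE protein (genes Wasf1, Wasf2 and Wasf3) and the small subunit BRK1. While the complex is inactive, the CYFIP subunit keeps the actin-promoting tail of WAVE hidden, and Rac1 binding releases it to the Arp2/3 complex. CYFIP1 also binds FMRP and the cap-binding protein eIF4E and so takes part in holding back translation. The genes described here were the 9 genes Cyfip1, Cyfip2, Nckap1, Abi1, Abi2, Wasf1, Wasf2, Wasf3 and Brk1, taken by symbol from the 48709 genes of each count table. Genes were tested if 20% or more of the mice had 10 reads or more, which left 17428 genes. All 9 members were among them and reached 10 reads in each of the 31 mice.

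Messenger RNA 3′ ends from basolateral amygdala (BLA) punches, left and right pooled, were sequenced with QuantSeq in 31 C57BL/6N mice. The WT group had 16 mice (8 males and 8 females, 58 to 61 days old) and the CYFIP1 OE group, which carried a bacterial artificial chromosome with human CYFIP1 inserted by pronuclear injection, had 15 (7 males and 8 females, 58 to 77 days old). The mice belonged to lines labelled 1 (8 WT and 7 CYFIP1 OE) and 3 (8 and 8), each bred from 1 founder chosen for high expression of the transgene. Reads were counted by mouse gene, so that Cyfip1 stands for the mouse gene; the human transcript was not analysed here and would add to Cyfip1 only where its reads were assigned to mouse sequence. In line 1, 7 of the 8 WT mice shared 1 name group (a shared prefix of the animal names) that held no CYFIP1 OE mouse, and a single name group held both genotypes, with 1 mouse of each, so that genotype and name group cannot be told apart there. The 4 oldest mice (77 days) were of line 1 and CYFIP1 OE, and the other 3 of that group were 59 to 62 days old. Genotype differences over both lines and ratio differences between the lines are also given without the 77-day mice. Genotype differences of single genes within line 1, and their interactions with line, were not fitted without these mice.

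Total counts were 5286708 to 8685308 per mouse (median 7387585). Markers of BLA principal neurons and of other tissue were both found, at levels that differed widely between mice. The share of BLA in each punch is not known. All 6 BLA principal neuron markers (Slc17a7, Rspo2, Neurod2, Neurod6, Bdnf and Camk2a) passed the filter, with a summed level of 519 to 3722 CPM. CPM is a gene's count relative to its library's total, after TMM normalization, which is edgeR's correction for library composition. Camk2a had the highest mean of the 6 (748 CPM) and 2954 reads or more in each mouse. The lowest counts in a mouse were 26 for Slc17a7, 0 for Rspo2, 18 for Neurod2, 3 for Neurod6 and 9 for Bdnf. Of 8 striatal projection neuron markers 7 passed (249 to 5918 CPM; Drd2 did not), as did all 10 oligodendrocyte markers (1171 to 9210 CPM) and all 4 choroid plexus markers (19.5 to 8397 CPM). In such bulk tissue, fewer cells of a type and less RNA per cell cannot be told apart. A single mouse, male CYFIP1 OE replicate 1 of line 3, stood apart from the others, with a connectivity Z-score (how well its profile correlates with those of the other mice) of -4.74. Several results that rest on it are also given without it.

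The paralogs are alike in coding sequence, and the reads of a paralog pair could be assigned to the wrong gene if their 3′ ends were alike too. Cyfip1 and Cyfip2 each have a coding sequence of 3762 bases for 1253 residues, and 77.7% of the 3759 aligned bases were identical. The last gap-free stretch of 60 coding bases is shown to let the pair be compared at the end of the coding sequence, with the 14 bases that differ in capitals (GENCODE transcripts, GRCm38, 5′ to 3′; Cyfip1 chr7:55930098-55930157, plus strand; Cyfip2 chr11:46196308-46196367, minus strand).
Cyfip1: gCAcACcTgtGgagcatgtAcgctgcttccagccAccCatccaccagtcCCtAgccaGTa
Cyfip2: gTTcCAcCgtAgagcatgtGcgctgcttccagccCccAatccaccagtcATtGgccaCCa
This stretch lies upstream of the ends that QuantSeq reads, since 2440 bases of Cyfip1 and 2450 bases of Cyfip2 follow the stop codon. Identity of coding bases was 70.8% for Abi1 and Abi2, 66.3% for Wasf1 and Wasf2, 65.8% for Wasf1 and Wasf3 and 66.3% for Wasf2 and Wasf3. No stretch of 31 bases was shared by the transcripts of any of these 5 pairs. In the last 1000 bases of the transcript with the longest coding sequence, 8 of the 9 genes shared no 31-base stretch with any other annotated gene, and Wasf3 shared 5 of 964. The Cyfip1 3′ end overlaps Nipa2 on the other strand (median count 70) and the Abi1 3′ end overlaps Pdss1 (median count 21). The strand setting of the counting is not given in the sources used here, so that reads in these overlaps cannot be told apart.

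The 9 genes spanned more than an order of magnitude in level, and the paralog with the higher level took most of the counts in every family. QuantSeq reads 1 fragment per transcript end, so that CPM were compared between genes without division by length. How well the ends of each gene are captured was not measured, and the tests of order given below cover the spread between mice only. The Rac1-binding subunit Cyfip2 (chr11:46193850-46312859) was the most abundant member, with a lowest, median and highest level of 241, 372 and 443 CPM over the 31 mice. Its paralog Cyfip1 (chr7:55841745-55932602) was the second lowest, with 23.4, 34.2 and 39.6 CPM. Nckap1 (chr2:80500512-80581380), which encodes the subunit that pairs with CYFIP, had 97.4, 145 and 182 CPM. All mice had far more Cyfip2 than Cyfip1, and the mean levels stood at the 98.9th and 77.8th percentiles of all tested genes.

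Of the adaptor genes, Abi2 (chr1:60409619-60481158) had 136, 253 and 319 CPM and Abi1 (chr2:22940073-23040241) 27.2, 48.2 and 76.2 CPM. The WAVE genes, whose products activate Arp2/3, were led by Wasf1 (chr10:40883475-40938570) with 84.7, 116 and 169 CPM. Wasf3 (chr5:146384985-146473615) followed with 23.5, 49.1 and 72.9 CPM, and Wasf2 (chr4:133130505-133199756), the WAVE gene best known outside neurons, had 4.26, 12.5 and 18.4 CPM. The Wasf2 level rested on 29 to 159 reads per mouse. Brk1 (chr6:113604772-113616951), the gene of the smallest subunit with 75 residues, had 98.2, 153 and 212 CPM. Ordered by mean, the genes were Cyfip2, Abi2, Brk1, Nckap1, Wasf1, Abi1, Wasf3, Cyfip1 and Wasf2. Of the 8 neighbours in this order, Brk1 and Nckap1 (Brk1 higher in 19 of 31 mice, adjusted p = 0.145, two-sided sign-flip permutation test with 100000 resamples, adjusted over the 8 pairs) and Abi1 and Wasf3 (16 of 31 mice, adjusted p = 0.667) did not differ beyond their spread. The other 6 neighbours differed, with the higher gene above the lower one in 27 to 31 of 31 mice and the smallest p that the resamples can give (1e-05; adjusted 1.33e-05).

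All members varied less between mice than the median gene. Their coefficients of variation (SD as a percent of the mean over 31 mice) were 12.2% for Cyfip1, 13.1% for Cyfip2, 13.2% for Nckap1, 15.1% for Wasf1 and 15.8% for both Abi2 and Brk1, and 23.9% for Wasf3, 24.3% for Abi1 and 29.0% for Wasf2, beside a median of 35.6% over all tested genes, whose median level of 9.32 CPM was lower than that of every member. Counting error alone would give 6.36% for Cyfip1 and 10.6% for Wasf2.

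**Figure D1:**
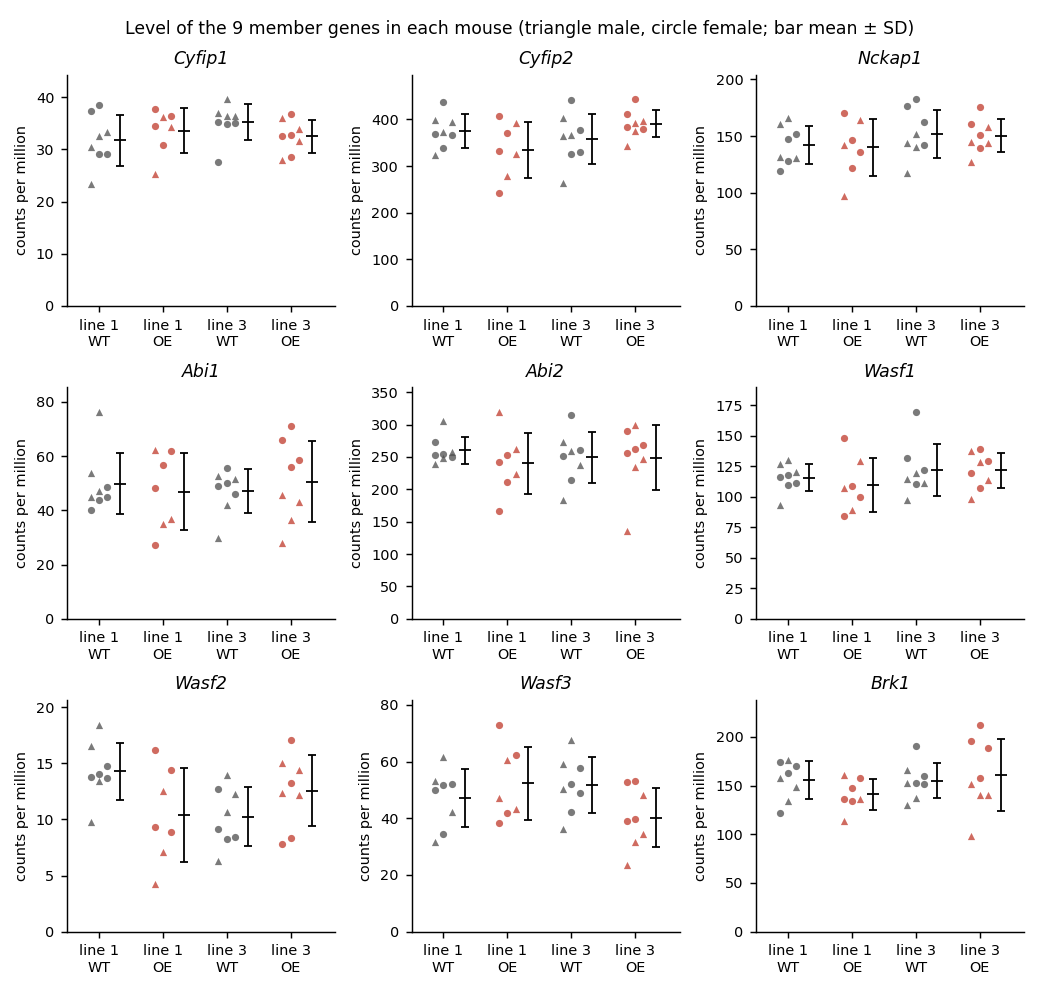
Level of each member gene in CPM (y axis) in every mouse, by line and genotype (x axis; OE is CYFIP1 OE), with triangles for males, circles for females and bars for the mean ± SD of 7 or 8 mice. The groups overlap for every gene, and the lowest points of Abi2 (136 CPM), Wasf3 (23.5 CPM) and Brk1 (98.2 CPM) belong to the same line 3 CYFIP1 OE mouse.

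The comparison of CYFIP1 OE with WT asks whether overexpression of human CYFIP1 changed the mRNA of the mouse gene, its paralog or its partners in the complex. Mouse Cyfip1 differed between the groups by less than its error. WT mice had 23.4, 35.0 and 39.6 CPM (lowest, median, highest) and CYFIP1 OE mice 25.2, 33.8 and 37.7 CPM, with means of 33.5 ± 4.48 (SD, n = 16) and 33.01 ± 3.66 (n = 15), and the groups overlapped almost fully. The log2 fold change was -0.024 ± 0.078 (SE; adjusted p = 0.999, edgeR quasi-likelihood test, Benjamini-Hochberg over 17428 genes), and its 95% confidence interval ran from an 11.9% decrease (-11.9%) to a 9.84% increase. Cyfip2 had means of 367 ± 44.7 CPM in WT and 365 ± 52.9 CPM in CYFIP1 OE mice, a log2 fold change of -0.017 ± 0.080 with an interval from -11.7% to 10.7%. Nckap1 had a log2 fold change of -0.023 ± 0.077, with an interval from -11.6% to 9.70%.

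The other 6 genes differed no more clearly between genotypes. The log2 fold changes were -0.0081 for Abi1 (interval -16.8% to 18.8%), -0.057 for Abi2 (-15.8% to 9.69%), -0.041 for Wasf1 (-13.5% to 9.17%), -0.066 for Wasf2 (-24.5% to 20.9%), -0.12 for Wasf3 (-22.9% to 9.65%) and -0.057 for Brk1 (-14.4% to 7.92%). All 9 estimates were below 0, where 51.3% of all tested genes were. The median of the 9 was -0.041, beside a median of -0.0053 over all genes, and none of the 9 differed from 0 beyond its error. Wasf3 had the smallest p of the 9 (p = 0.339, edgeR). No member passed an adjusted p of 0.05, and none had a p under 0.005 or under 0.05. Among all tested genes 0% passed the adjusted p, 0.293% had a p under 0.005 and 4.3% a p under 0.05 (51 and 750 genes; DESeq2 called 0 genes at the adjusted p and 81 at p under 0.005). In the 5 name groups with mice of either genotype (9 WT and 9 CYFIP1 OE mice), and with the name group as a block, the log2 fold changes of Cyfip2, Nckap1, Abi1, Wasf1 and Wasf2 turned positive and no member was called.

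**Figure D2:**
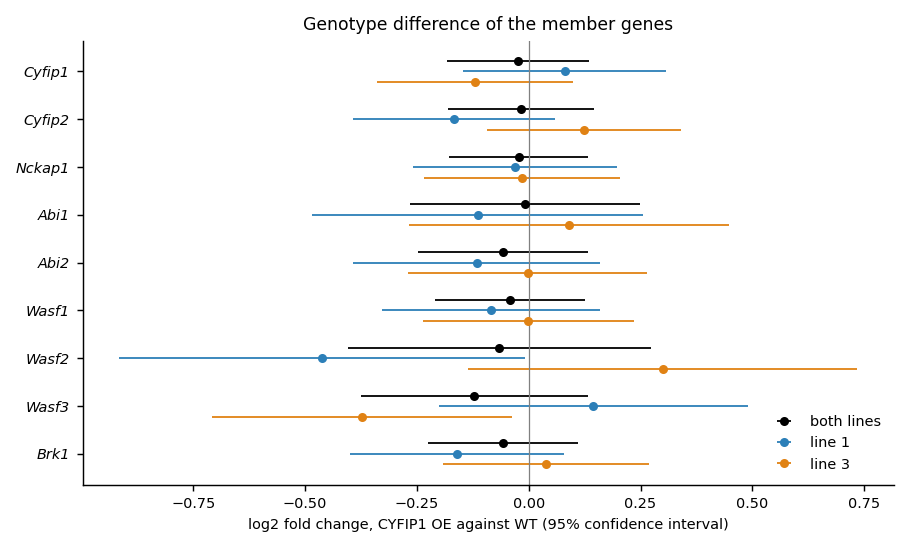
Log2 fold change of CYFIP1 OE against WT (x axis) with its 95% confidence interval for each member gene (y axis), over both lines (black), in line 1 (blue) and in line 3 (orange), from edgeR. All 9 intervals over both lines include 0, and Wasf2 in line 1 and Wasf3 in line 3 have intervals that lie below 0.

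Line 3 was compared with line 1 to see whether the mice of the insertion lines differ in these genes. Each name group lay within a single line, so that line and name group cannot be told apart. No member was called, with log2 fold changes from -0.12 (Wasf2) to 0.11 (Wasf1), a median of 0.058 beside 0.0071 over all genes, and no p under 0.005 or 0.05. Among all tested genes 0% passed the adjusted p, 0.189% had a p under 0.005 and 3.31% a p under 0.05 (33 and 576 genes; DESeq2 called 0 genes at the adjusted p and 75 at p under 0.005). Cyfip1 had 23.4, 33.4 and 38.6 CPM in line 1 and 27.6, 35.0 and 39.6 CPM in line 3, with a fold change between -6.75% and 16.3% (95% interval). Females had more Brk1 than males before adjustment, with 122, 159 and 212 CPM in 16 females and 98.2, 141 and 176 CPM in 15 males. The log2 difference of 0.19 ± 0.082 had p = 0.024 and an adjusted p of 0.970 (edgeR), and is not a call. It was the only member with a p under 0.05 for sex, where 4.62% of all genes had one, 0.436% had a p under 0.005 and 0.0631% (11 genes) passed the adjusted p.

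Whether the genotype difference was alike in both lines was tested with the interaction term. No member passed the adjusted p or a p under 0.005, and Wasf2 and Wasf3 had a p under 0.05 in opposite directions. Over all genes 0% passed the adjusted p, 0.843% had a p under 0.005 and 8.1% a p under 0.05 (147 and 1412 genes; DESeq2 called 2 genes at the adjusted p), and the count of 2 among 9 members is read against that 8.1%.

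Wasf2 levels in line 1 were 9.75, 13.9 and 18.4 CPM in WT and 4.26, 9.32 and 16.2 CPM in CYFIP1 OE mice. In line 3 the order was turned, with 6.34, 9.90 and 14.01 CPM in WT and 7.78, 12.8 and 17.1 CPM in CYFIP1 OE mice. The ranges overlapped in both lines. The genotype log2 fold change was -0.46 ± 0.22 in line 1 (p = 0.047) and 0.30 ± 0.21 in line 3 (p = 0.172), and the interaction was 0.76 ± 0.31 (p = 0.019, adjusted p = 0.557, edgeR). In the 16 WT mice alone, which carry no transgene, Wasf2 was lower in line 3 than in line 1 (log2 difference -0.48 ± 0.21, p = 0.031, adjusted p = 1.00, edgeR), where 4.41% of all genes had a p under 0.05. In the CYFIP1 OE mice the estimate had the opposite sign (0.28 ± 0.22, p = 0.222, edgeR).

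Wasf3 went the other way. Line 1 had 31.6, 50.8 and 61.5 CPM in WT and 38.4, 47.0 and 72.9 CPM in CYFIP1 OE mice, and line 3 had 36.3, 51.1 and 67.6 CPM in WT and 23.5, 39.3 and 53.0 CPM in CYFIP1 OE mice. The lowest, median and highest values of the line 3 CYFIP1 OE mice were each below those of the other 3 groups, and all ranges overlapped. The genotype log2 fold change was 0.14 ± 0.17 in line 1 (p = 0.402) and -0.37 ± 0.16 in line 3 (p = 0.031), with an interaction of -0.52 ± 0.24 (p = 0.036, adjusted p = 0.581, edgeR). The p under 0.05 was met by 3.96% of all genes for genotype in line 1 and by 7.93% in line 3. Without the line 3 CYFIP1 OE mouse that stood apart, the interaction of Wasf3 was -0.43 (p = 0.0632). Cyfip2 (interaction 0.29 ± 0.15, p = 0.068) and Cyfip1 (-0.20 ± 0.15, p = 0.203) also had estimates of opposite sign, with neither past a p of 0.05.

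Because both paralogs are counted in the same library, the balance of a family needs no scaling between mice, and it was compared as the log2 ratio of counts. Cyfip1 made up 8.47% ± 1.58 (SD, n = 31) of the CYFIP family counts, with 8.50% ± 1.70 in WT and 8.44% ± 1.498 in the CYFIP1 OE group. The lowest mouse had 5.88% (95% Wilson interval 5.11% to 6.75%) and the highest 12.3% (11.2% to 13.6%), and both were WT mice of line 3. Cyfip2 counts exceeded those of Cyfip1 in 31 of 31 mice, and Abi2 counts those of Abi1 likewise. Abi1 made up 16.3% ± 3.02 of the ABI counts. Of the WAVE counts Wasf1 took 66.2% ± 6.14, Wasf3 26.9% ± 5.89 and Wasf2 6.83% ± 2.22.

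None of 5 ratios (Cyfip1 to Cyfip2, Abi1 to Abi2, Wasf1 to Wasf3, Wasf2 to Wasf1 and Wasf2 to Wasf3) differed by genotype or by line over all 31 mice. For genotype, the Cyfip1 to Cyfip2 difference was -0.0016 with a 95% interval from -0.23 to 0.22 on the log2 scale (p = 0.989, two-sided permutation of labels within line and sex, 100000 resamples), and the smallest p of the 5 was 0.615. For line the smallest p was 0.188, for Wasf1 to Wasf3.

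Taken within the lines, some ratios moved in opposite directions. In a test chosen after seeing the data, in which the genotype difference was compared between the lines, 2 of the 5 ratios had an adjusted p under 0.05. The Wasf2 share of Wasf2 and Wasf3 counts in line 1 was 17.9%, 22.6% and 29.9% (lowest, median, highest) in WT and 8.95%, 17.1% and 29.6% in CYFIP1 OE mice. In line 3 it was 8.58%, 16.1% and 25.3% in WT and 12.8%, 25.5% and 34.5% in CYFIP1 OE mice. The log2 ratio differed by -0.72 in line 1 and by 0.68 in line 3, and the difference between the lines was 1.40 (p = 0.0012, adjusted p = 0.006 over the 5 ratios, permutation test). It was 1.04 without the 4 mice of name group X424.C (adjusted p = 0.0703), 1.32 without the mouse that stood apart (adjusted p = 0.0141) and 1.52 without the mice aged 77 days (adjusted p = 0.0056).

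The Cyfip1 share of CYFIP counts in line 1 was 5.93%, 7.67% and 9.94% in WT and 7.20%, 9.23% and 11.5% in CYFIP1 OE mice. In line 3 it was 5.88%, 9.33% and 12.3% in WT and 6.85%, 7.65% and 8.77% in CYFIP1 OE mice, which lay within the WT range. The log2 ratio differed by 0.26 in line 1 and -0.25 in line 3, and the difference between the lines was -0.51 (p = 0.0134, adjusted p = 0.0336, permutation test). It was -0.44 without name group X424.C (adjusted p = 0.104), -0.59 without the mice aged 77 days (adjusted p = 0.0514) and -0.51 without the mouse that stood apart (adjusted p = 0.0423). Wasf1 to Wasf3 and Wasf2 to Wasf1 had differences between the lines of 0.63 and 0.77 (adjusted p = 0.08 for both), and Abi1 to Abi2 of 0.076 (p = 0.751). Among WT mice alone, the ratios with Wasf2 differed between lines before adjustment. The differences were -0.65 for Wasf2 to Wasf3 (p = 0.0205) and -0.57 for Wasf2 to Wasf1 (p = 0.0287, adjusted p = 0.0718 for both, permutation test). Line and name group cannot be told apart in these mice.

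**Figure D3:**
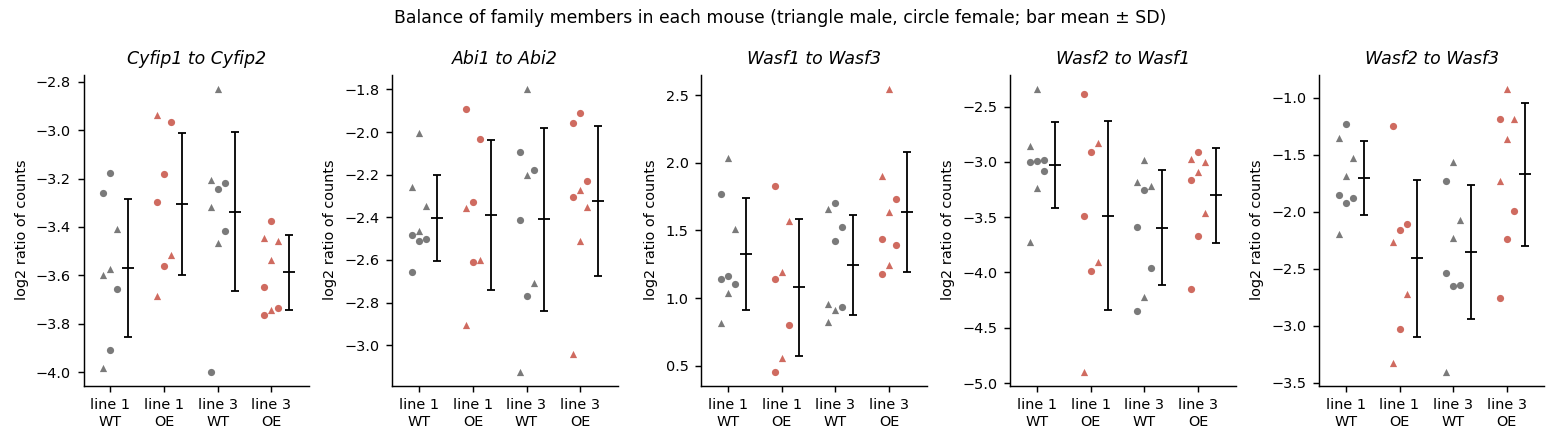
Log2 ratio of the counts of paired family members (y axis) in every mouse, by line and genotype (x axis; OE is CYFIP1 OE), with triangles for males, circles for females and bars for the mean ± SD. The Wasf2 to Wasf3 ratio of CYFIP1 OE mice minus that of WT mice was -0.72 in line 1 and 0.68 in line 3, with overlapping points in both lines.

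Oligodendrocyte and microglia markers moved with Wasf2 across mice (described further on), and their levels are given here beside the line-dependent result. The summed level of the 10 oligodendrocyte markers (lowest, median, highest) was 1988, 3978 and 5831 CPM in line 1 WT, 1171, 2569 and 5111 CPM in line 1 CYFIP1 OE, 1520, 2875 and 9210 CPM in line 3 WT and 1288, 2589 and 5361 CPM in line 3 CYFIP1 OE mice. That of the 9 microglia markers was 296 to 336, 216 to 441, 234 to 366 and 288 to 368 CPM in the same order, with medians of 314, 279, 283 and 317 CPM. The striatal projection neuron markers crossed between the lines by their medians, with 3739, 2385, 2413 and 3707 CPM in that order (ranges 2934 to 4219, 695 to 4665, 249 to 5316 and 288 to 5918 CPM), and their part in the result was not tested. The oligodendrocyte and microglia scores were then removed by regression, an alternative chosen after seeing the data. Their slopes were fitted once, with sex, line, genotype and its interaction with line in the model, and were not refitted in the permutations. The p values of this alternative therefore leave out the error of the slopes and may be too small. The difference between the lines was 1.18 for Wasf2 to Wasf3 (adjusted p = 0.0087) and -0.56 for Cyfip1 to Cyfip2 (adjusted p = 0.0087, permutation test). For Wasf2 to Wasf1 it was 0.43 in place of 0.77 (adjusted p = 0.201, permutation test). For Wasf1 to Wasf3 it was 0.75 (adjusted p = 0.0277) and for Abi1 to Abi2 0.032 (adjusted p = 0.891, permutation test).

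Co-variation asks whether the subunits rise and fall together from mouse to mouse. It was measured as Pearson's r of log2 CPM over the 31 mice with sex, line and genotype removed. The 36 pairs had a median r of 0.093, from -0.42 (Cyfip1 and Brk1) to 0.55 (Abi2 and Brk1), and 22 were positive. All pairs of tested genes had a median of -0.001, with quartiles of -0.16 and 0.16, and 7 of the 36 member pairs lay above 0.40, the value that 5% of all pairs exceed. Against the same percentile taken anew, 5 pairs lay above it without the mouse that stood apart and 3 with marker scores removed. Every member had a higher mean level than the median tested gene (9.32 CPM). Pairs of genes at a like level were not taken as the background, so that 5% need not be the share to expect for these genes. All mice share the way of dissection and library preparation, but the marker levels given above differed widely between the punches. No pair had an adjusted p under 0.05 over the 36 pairs, and 9 had a p under 0.05 (permutation test, 100000 resamples). In parts of the data some pairs gained a call. Among CYFIP1 OE mice alone there were 4 (Abi2 and Brk1, Abi1 and Brk1, Cyfip2 and Abi1, and Abi1 and Abi2, with adjusted p of 0.0324, 0.0378, 0.0378 and 0.0427), in line 1 alone there was 1 (Cyfip2 and Abi1, adjusted p = 0.0468), and among WT mice and in line 3 there were 0. Whether r differed between these groups was not tested. The mouse that stood apart is a CYFIP1 OE mouse and had the lowest Abi2 and Brk1 levels of the 31 mice. The 4 calls among CYFIP1 OE mice were not tested without it.

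Of the 7 pairs above 0.40, 6 joined the adaptors Abi1 and Abi2, Brk1 and Cyfip2 with each other, and the other was Abi1 and Wasf3 (r = 0.46, rho = 0.42, p = 0.00877 and 0.0189, adjusted p = 0.0631 for r, permutation test; 0.40 without the 2 farthest mice and 0.36 without the mouse that stood apart). Abi2 and Brk1 had r = 0.55 (rho = 0.40, p = 0.00145 and 0.0273, adjusted p = 0.0522 for r, permutation test) and 0.33 without the 2 mice farthest from the median. Within groups it was 0.43 in line 1, 0.64 in line 3, 0.086 among WT mice and 0.78 among CYFIP1 OE mice. The mouse that stood apart had 53.7% of the median level of the other mice for Abi2, 47.5% for Wasf3, 58.1% for Abi1 and 64.2% for Brk1, and 97.8% to 119% for Cyfip1, Cyfip2, Nckap1, Wasf1 and Wasf2. Without it, the r of Abi2 and Brk1 was 0.35, that of Abi1 and Abi2 went from 0.49 to 0.36, and that of Abi1 and Brk1 from 0.48 to 0.37.

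The pairs with Cyfip2 changed the other way. Without that mouse, Cyfip2 and Abi2 had r = 0.71 (adjusted p = 0.0018 over the 36 pairs, permutation test) in place of 0.48, Cyfip2 and Brk1 0.56 in place of 0.42 (adjusted p = 0.0198), and Cyfip2 and Abi1 0.53 in place of 0.45 (adjusted p = 0.0347). With the scores of 6 marker lists (neuron, striatal projection neuron, oligodendrocyte, astrocyte, microglia and endothelial) removed over all 31 mice, Cyfip2 and Abi2 had r = 0.027, Cyfip2 and Brk1 -0.087 and Cyfip2 and Abi1 0.44. Within the lines, Cyfip2 and Abi1 had r = 0.75 in line 1 and 0.017 in line 3.

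Apart from the ABI genes, the paralogs of a family had values of r below 0 that did not pass the test. Cyfip1 and Cyfip2 had r = -0.17 (rho = -0.17, p = 0.350 and 0.356, permutation test; -0.20 without the 2 farthest mice), with -0.068 in line 1 and -0.33 in line 3. Wasf1 and Wasf2 had r = -0.33 (rho = -0.25), Wasf1 and Wasf3 -0.24 (rho = -0.22) and Wasf2 and Wasf3 -0.22 (rho = -0.23), with adjusted p of 0.227, 0.448 and 0.501 for r. The lowest r of all, between Cyfip1 and Brk1, was -0.42 (rho = -0.44, p = 0.0188 and 0.0131, adjusted p = 0.0916 for r), and it was -0.35 without the 2 farthest mice, -0.51 in line 1, -0.33 in line 3 and -0.51 with the marker scores removed.

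**Figure D4:**
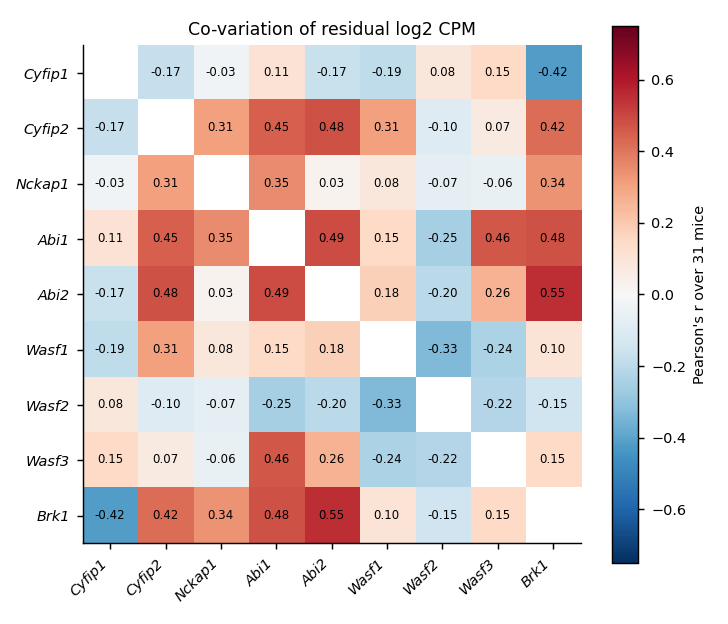
Pearson's r of residual log2 CPM between the 9 member genes over 31 mice, with red for positive and blue for negative values and r printed in each cell. The highest value is 0.55 for Abi2 and Brk1 and the lowest -0.42 for Cyfip1 and Brk1.

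No member was among the 3 genes most alike to another member. The highest place of one member in the list of another was 438, that of Abi2 for Cyfip2. Cyfip1 was most like Gm21596, a processed pseudogene whose reads may come from its parent gene (r = 0.68), Zfc3h1 (0.64) and Ckap5, a microtubule polymerase (0.62). Cyfip2 was most like Gm44090 (0.77), the proteoglycan gene Ncan (0.77) and Gnao1, a neuronal G protein subunit (0.76). Nckap1 had r = 0.78 with the potassium channel gene Kcna2, 0.77 with Cntnap1, which encodes a protein of the paranodal junction of axons, and 0.76 with Coro2b, a coronin. For Abi1 they were Calm2, a calmodulin gene (0.86), Ndufa1, of respiratory complex I (0.86), and Rerg (0.85), and for Abi2 Trim9 (0.85), Nceh1 (0.85) and the immediate early gene Egr1 (0.83). Without the mouse that stood apart, these 3 values for Abi2 were 0.75, 0.75 and 0.71.

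Wasf1 was most like Jak1 (0.77), Icam5, an adhesion molecule of telencephalic dendrites (0.69), and the neuronal membrane protein gene Gpm6a (0.68). Wasf2 was most like the myelin protein gene Pllp (0.72), Ranbp6 (0.71) and Cyp4f16 (0.69), and Wasf3 most like Arl8a, a lysosomal GTPase gene (0.84), Selenok (0.80) and the calcium sensor gene Ncs1 (0.80). Brk1 had r = 0.81 with B4galt2, 0.80 with Rab15 and 0.80 with the histone gene H2afz. These genes were picked as the highest over all tested genes and are given with no test.

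The WAVE genes differed in the cell type markers they moved with. Over 117 relations (9 genes with 12 marker scores and with the total count), 5 had an adjusted p under 0.05 (0.0363 for each; permutation test). Wasf1 rose with the BLA principal neuron score (r = 0.55, rho = 0.49, p = 0.00153 and 0.00557; 0.49 without the 2 mice farthest from the median score) and fell with the oligodendrocyte score (r = -0.56, rho = -0.49, p = 0.00116 and 0.00553; -0.44 without the 2 farthest). Wasf2 rose with the oligodendrocyte score (r = 0.54, rho = 0.61, p = 0.00155 and 0.00041; 0.59 without the 2 farthest) and with the microglia score (r = 0.55, rho = 0.44, p = 0.00141 and 0.013; 0.41 without the 2 farthest). Brk1 rose with the striatal projection neuron score (r = 0.60, rho = 0.62, p = 0.00038 and 0.00029; 0.51 without the 2 farthest and 0.51 without the mouse that stood apart).

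The scores were measured in the same punches and their relations with each other are not given here, so that the 5 relations cannot be read as separate. All 5 kept their sign within each line. They were 0.51 and 0.61 (lines 1 and 3) for Wasf1 with the BLA score, -0.59 and -0.54 for Wasf1 with the oligodendrocyte score, 0.70 and 0.39 for Wasf2 with the oligodendrocyte score, 0.65 and 0.40 for Wasf2 with the microglia score, and 0.49 and 0.68 for Brk1. The smallest adjusted p for Cyfip1, Cyfip2, Nckap1, Abi1, Abi2 and Wasf3 was above 0.05. With the total count, Cyfip2 had r = -0.36 and Abi2 -0.42, neither with an adjusted p under 0.05.

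**Figure D5:**
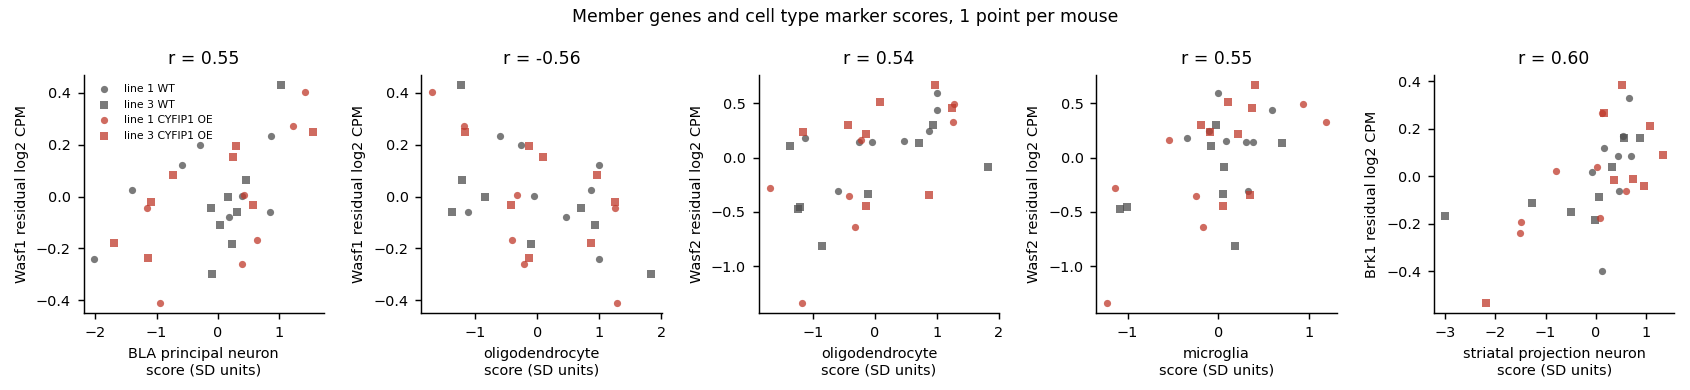
Residual log2 CPM of a member gene (y axis) against a cell type marker score in SD units (x axis), 1 point per mouse, for the 5 relations with an adjusted p under 0.05; circles are line 1, squares line 3, grey WT and red CYFIP1 OE. Wasf1 falls and Wasf2 rises with the oligodendrocyte score (r = -0.56 and 0.54).

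Of 65 further genes of the pathway, all passed the filter and none passed an adjusted p of 0.05 in any comparison. The list held the blood cell forms of the subunits, Rac and other GTPases, their exchange factors, adaptors, Arp2/3 subunits and regulators, other nucleation promoters and the FMRP and eIF4E arm. For genotype, 32 were higher and 33 lower in CYFIP1 OE mice, with a median log2 fold change of -0.0024 beside -0.0053 over all genes, and 2 had a p under 0.05, where 4.3% of all genes had one. Nck2, an adaptor that binds the complex, had 6.45, 9.61 and 16.4 CPM in WT and 4.85, 7.21 and 13.7 CPM in CYFIP1 OE mice, a log2 fold change of -0.39 ± 0.15 (p = 0.0152, adjusted p = 0.999, edgeR). The 9 Arp2/3 subunit genes (4 higher, 5 lower) and the 8 genes of the FMRP and eIF4E arm (4 and 4) had no p under 0.05 for genotype.

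For line, 40 pathway genes were higher and 25 lower in line 3, where 9024 of the 17428 genes were higher, and 3 had a p under 0.05, as 3.31% of all genes did. Rac2, the Rac gene of blood cells, had 0.379, 1.65 and 3.23 CPM in line 1 and 0.129, 0.703 and 3.26 CPM in line 3 (log2 difference -0.98 ± 0.36, p = 0.0104, adjusted p = 1.00, edgeR), at a level near that of a few reads. Kalrn, a Rac exchange factor of spines, was at 99.5, 120 and 230 CPM in line 1 and 88.0, 168 and 270 CPM in line 3 (0.32 ± 0.14, p = 0.0251).

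The interaction gave 8 pathway genes with a p under 0.05 and 1 under 0.005, where the shares over all genes were those given above. That gene was Arpc2, a core subunit of Arp2/3, with 180, 204 and 218 CPM in line 1 WT, 125, 177 and 208 CPM in line 1 CYFIP1 OE, 140, 185 and 232 CPM in line 3 WT and 191, 229 and 278 CPM in line 3 CYFIP1 OE mice. CYFIP1 OE mice were lower than WT in line 1 and higher in line 3 by the medians, with overlapping ranges. The interaction was 0.52 ± 0.15 (p = 0.00181, adjusted p = 0.527, edgeR). For sex, 39 pathway genes were higher and 26 lower in females, all 9 Arp2/3 subunit genes were among the higher ones with no p under 0.05, and 4 of the 65 had a p under 0.05, beside 4.62% of all genes. Over all genes 53.4% were lower in females.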

How the data were processed

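RNA from the BLA of 31 mice was sequenced with QuantSeq 3′ libraries. The authors mapped reads to GRCm38 with STAR and deposited, for each mouse, expected counts from Salmon by Ensembl gene, without normalization. The deposited estimated counts were rounded to whole numbers here. Names came from GENCODE M21 and matched 48349 of 48709 genes. Cyrib is listed there as Fam49b. Each mouse was 1 replicate, grouped by its labels.

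Testing used edgeR 4.0.16 in R 4.3.3 (TMM, quasi-likelihood F test with sex, line and genotype as terms) and was limited to genes that reached 10 reads in 20% of the mice. The authors removed samples with a connectivity Z-score under -2. The mouse with a Z-score of -4.74 here was kept in the main results, and some alternatives leave it out. In their own DESeq2 fit the authors added 5 sequencing principal components. These were not used here, and 5 surrogate variables from sva 3.50.0 took their place in an alternative. DESeq2 1.42.0 was another alternative. CPM were scaled by TMM, and log2 CPM used a prior count of 2. Ratios used counts plus 0.5. Permutation tests used 100000 resamples (fewer for most alternatives of the co-variation) and numpy 2.4.6, and were, like the fits, tested on simulated data. Depth limits genes with few reads, and intervals of shares cover counting error only.

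Named were all members, the 3 genes most alike to each, and pathway genes with an adjusted p under 0.05 or a p under 0.005, or with the smallest p in each direction for genotype and for line (1 of these is not reported here). The members and gene lists were chosen with earlier results of these data known. Alternatives changed the test, filter, covariates or mice. Replicate numbers only name mice and pair none.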

Additional observations from a re-analysis of the deposited data

Results flagged for a closer look

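In 56 sets of values (9 genes and 5 ratios in each line and genotype, 7 or 8 mice a set), 3 held a mouse far from the others by Dixon's criterion, and chance flags about 1 in 20 such sets. Cyfip1 was at 27.6 CPM in WT replicate 16 of line 3, a female, with the next mouse at 34.9 CPM. Abi1 was at 76.2 CPM in WT replicate 4 of line 1, a male, with the next mouse at 53.6 CPM. Abi2 was at 136 CPM in CYFIP1 OE replicate 1 of line 3, with the next mouse at 234 CPM, and this is the mouse with the connectivity Z-score of -4.74.

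The genotype difference of 2 ratios differed between the lines in a permutation test chosen after seeing the data. For Cyfip1 to Cyfip2 the log2 difference in line 3 minus line 1 was -0.51 (adjusted p = 0.0336, permutation test). For Wasf2 to Wasf3 it was 1.40 (adjusted p = 0.006, permutation test). Genotype in line 1 cannot be told apart from name group. Without the mice aged 77 days the values were -0.59 and 1.52 (adjusted p = 0.0514 and 0.0056, permutation test).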

How the results depend on the processing

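No member was called at an adjusted p of 0.05 by genotype under any of 9 alternatives or by line under any of 6, so the sign changes below are between estimates within their error. Genotype log2 fold changes that turned positive were as follows. Cyfip1 had 0.028 with 5 surrogate variables and 0.066 in line 1 alone. Cyfip2 had 0.039 with age as a covariate, 0.048 without the mice aged 77 days and 0.13 in line 3 alone. Nckap1 had 0.051 with age and 0.056 without the 77-day mice. Abi1 had 0.0012 with surrogate variables, 0.068 with age, 0.089 without the 77-day mice, 0.038 without the low-connectivity mouse and 0.072 in line 3. Wasf2 had 0.038 with age, 0.044 without the 77-day mice and 0.30 in line 3. Wasf1 had 0.0054 and Brk1 0.035 in line 3, and Wasf3 0.14 in line 1. With the name group as a block, Cyfip2 had 0.065, Nckap1 0.0037, Abi1 0.078, Wasf1 0.035 and Wasf2 0.099. For line, the signs turned for Cyfip2 (-0.0085 with surrogate variables, -0.068 in WT alone), Abi1 (-0.0076 without a filter, -0.089 with surrogate variables, -0.082 in WT alone), Abi2 (0.11 without name group X424.C, 0.034 without the low-connectivity mouse), Wasf2 (0.012 with surrogate variables), Wasf3 (0.13 in WT alone) and Brk1 (-0.011 in WT alone). The cause was not tested.

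Genes with a p under 0.005 for genotype went from 51 to 81 with DESeq2, 366 without a filter (32936 genes tested), 107 with surrogate variables and 108 in line 1 alone. For line they went from 33 to 75, 383 and 68 under the first 3 of these, 119 in WT alone and 104 without X424.C. At the adjusted p, line gave 2 genes without a filter. The interaction went from 147 to 342 without the low-connectivity mouse, and DESeq2 called 2 genes at the adjusted p.

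No ratio was called by genotype or line under any alternative. By genotype the sign turned for Cyfip1 to Cyfip2 (0.26 in line 1), Wasf1 to Wasf3 (-0.24 in line 1), Wasf2 to Wasf1 (0.29 in line 3, 6.7e-05 without the 77-day mice) and Wasf2 to Wasf3 (-0.72 in line 1, -0.062 without the low-connectivity mouse). By line it turned in WT alone for Cyfip1 to Cyfip2 (0.23), Abi1 to Abi2 (-0.0067), Wasf1 to Wasf3 (-0.081) and Wasf2 to Wasf3 (-0.65), without X424.C for Abi1 to Abi2 (-0.089) and without the low-connectivity mouse for Wasf2 to Wasf3 (-0.052). The difference between the lines lost its call without X424.C for Wasf2 to Wasf3 (1.04) and Cyfip1 to Cyfip2 (-0.44). Without the 77-day mice it lost its call for Cyfip1 to Cyfip2 (-0.59) and turned for Abi1 to Abi2 (-0.024). Wasf1 to Wasf3 gained a call with the oligodendrocyte and microglia scores removed (0.75), by a p that leaves out the error of the slopes.

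The median r of the 36 pairs went from 0.093 to 0.0074 without the 2 farthest mice, 0.19 in line 1 and 0.0063 in line 3. Cyfip1 and Cyfip2 had r = 0.064 in CYFIP1 OE mice, and Cyfip2 and Brk1 -0.087 with the marker scores removed. Replicate numbers were given in the order of the samples and pair no mice, and the values within name groups are those with the name group as a block. No paired analysis was possible because of this for the replicate numbers themselves.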
